A study of Mus musculus with 12 samples.

Results

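Heat shock proteins and their folding helpers were followed as 74 genes on 80 spots, out of 15081 named genes on 22138 gene spots. A spot belonged to the set when it carried a single gene symbol beginning with Hsp90, Dnaj or Pdia, a symbol of the HSP70, small heat shock, chaperonin or HSP110 families (Hspa, Hspb, Hspd, Hspe, Hsph), or Calr or Canx. Hspg2, a matrix proteoglycan, was left out. By the usual site of the protein, 43 genes were cytosolic or nuclear, 20 belonged to the endoplasmic reticulum (ER), 8 were mitochondrial, and Dnajc4, Dnajc18 and Dnajc22 were not placed. All 12 arrays gave a value for 51 of the 74: 31 cytosolic or nuclear, 14 ER, 4 mitochondrial and 2 unplaced genes. The annotation used here assigned no spot to Hsp90aa1 or Hsp90ab1, so cytosolic HSP90 was not analysed here.

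RNA from mouse samples, labelled with Cy3, was hybridised to spotted arrays against a commercial embryonic RNA in Cy5. The 12 arrays form 4 groups of 3: WT and NLS at 0GH, and WT and NLS at 1GH, with the letters b, c and d in each. The study is titled for a nuclear growth hormone receptor. The titles call one form WT (wild type) and the other NLS, the common abbreviation for a nuclear localization signal, which the labels do not spell out. All 12 titles carry a 10 of unstated meaning after the receptor name, all 12 samples list human growth hormone (GH) at 100 ng/ml, and the experiment is called a time course. The titles give no unit for the 0 or the 1 before GH, so groups are named by these numbers and not as treated and untreated. Neither the cell type, the way the receptor was introduced, nor whether the letters are separate cultures is labelled. The p-values therefore measure the spread between these samples, which may be technical.

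Values are centred log2 ratios of sample over reference, with the median of all tested features of the array at 0. A difference of 1 on this scale is a 2-fold ratio if the deposited values are log2, a base that is not stated. The channel in the numerator is not stated. Genes of embryo tissues set the direction: 32 of 35 lay on the reference side when the deposited sign was turned. The opposite reading would turn every sign given here. An array gave values for 15939 to 19700 of its 23040 spots. Of its blank spots, 7.85% (WT 1GH b) to 19.5% (WT 1GH c) also had a value, so a value does not by itself show signal. The correlation between arrays of the same group was 0.34 to 0.63 over features, which are not independent. Marker lists were read as a check of the unlabelled cells. Of those read, the B lymphoid and the erythroid and megakaryocyte lists had the highest medians of gene means, 0.62 and 0.54. Gene means within them lay far apart, from -4.64 (Ebf1) to 3.88 (Cd79b) and from -4.47 (Pf4) to 2.14 (Gata1). The myeloid list, with a median of -2.07, held Prtn3 at 3.74. These medians therefore do not name a cell type. The median of the B lymphoid list lay between 0.076 and 2.42 on the WT arrays and between -0.15 and 2.49 on the NLS arrays. The median of the erythroid and megakaryocyte list (6 of 7 genes on the array) lay between -0.12 and 2.16 in WT and between -3.03 and 0.47 in NLS. These ranges overlap, and not every gene had a value on every array. Of this list 3 genes were tested for NLS minus WT and 0 were called. Itga2b had a higher mean in NLS (1.31) than in WT (0.64), and the others on the array had a lower one. The part of this second list in the differences below was not tested.

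Chaperones bind unfolded proteins and keep them from aggregating. HSP70 proteins do so in cycles of ATP hydrolysis that J-domain proteins (Dnaj) start and nucleotide exchange factors reset. The mitochondrial HSP70 (Hspa9) pulls imported proteins into the matrix, where the chaperonin Hspd1 with its lid Hspe1 folds them. The ER has its own HSP70 (Hspa5, also called BiP), its own HSP90 (Hsp90b1), the sugar-binding chaperones calnexin (Canx) and calreticulin (Calr), and protein disulfide isomerases (Pdia). ER chaperone genes are known to be raised together by the unfolded protein response through the ER stress response element, and cytosolic ones by heat shock factors through heat shock elements.

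Promoter windows from RefSeq (GRCm38.p6, 250 bases before to 50 after the start) show how far the compartments share such letters. Of the 74 genes, 63 had at least 1 window. The heat shock element was searched as GAA, TTC and GAA in a row with any 2 bases between neighbours, and the ER stress response element as CCAAT and CCACG with any 9 bases between them, each on both strands. The first occurs in 198 of 32851 windows of all genes (0.603%), and the second in 39 (0.119%). Counted by gene, as the members are below, the shares are 0.662% and 0.137% of 27025 genes. The heat shock letters were in the windows of Hspd1 and Hspe1, of 6 mitochondrial genes with a window, and of Dnajb6 and Hsph1, of 37 cytosolic ones. Hspd1 and Hspe1 lie head to head and share the stretch below, so their matches are 1 place. It is printed because these partner chaperonin genes are read side by side in the results. Capitals mark 2 overlapping matches, 1 on each strand.
Hspe1, chr1:55088019-55088116, + strand: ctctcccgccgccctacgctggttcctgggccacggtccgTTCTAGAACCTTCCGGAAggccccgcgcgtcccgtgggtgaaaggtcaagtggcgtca

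The ER stress response element letters were in the windows of 6 of 19 ER genes with a window, Hspa5, Hsp90b1, Calr, Canx, Pdia6 and Dnajc3, and of 0 of 37 cytosolic and 0 of 6 mitochondrial genes. These stretches are printed because the same 6 genes have values on all 12 arrays and can be read against each other. Each is given from 5′ to 3′ on the strand of its gene. Capitals mark the fixed letters of the element, which read CGTGG and ATTGG where the match is on the opposite strand. Hsp90b1 holds 2 matches that do not overlap.
Hspa5, chr2:34772005-34772063, + strand: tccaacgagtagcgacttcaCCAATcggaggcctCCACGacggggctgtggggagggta
Hsp90b1, chr10:86705618-86705676, - strand: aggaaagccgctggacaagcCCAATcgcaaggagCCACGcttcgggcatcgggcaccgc
Hsp90b1, chr10:86705513-86705571, - strand: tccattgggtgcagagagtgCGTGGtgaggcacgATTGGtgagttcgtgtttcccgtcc
Calr, chr8:84847055-84847113, - strand: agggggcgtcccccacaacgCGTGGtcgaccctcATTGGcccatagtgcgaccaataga
Canx, chr11:50325780-50325838, - strand: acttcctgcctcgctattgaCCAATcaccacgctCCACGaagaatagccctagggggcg
Pdia6, chr12:17266471-17266529, + strand: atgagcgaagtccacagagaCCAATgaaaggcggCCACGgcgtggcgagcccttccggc
Dnajc3, chr14:118937807-118937865, + strand: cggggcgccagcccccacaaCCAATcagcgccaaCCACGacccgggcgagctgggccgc
A match describes these letters only and does not show that a factor binds there.

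The first comparison asks how chaperone transcripts differ between the receptor forms over both GH numbers (NLS minus WT, averaged over 0GH and 1GH). No chaperone gene passed the test: limma called 0 of 51 at an adjusted p under 0.05, and 0% of all 10762 features tested. At an unadjusted p under 0.05 stood 2 of the 51, beside 5.27% of all features. Hspa9 was on the higher side, beside 2.81% of all features, and Dnajc17 on the lower side, beside 2.46%. With the letter as a block these were 4 of 51 (Hspa9 and Hspa12b higher, Dnajc17 and Hspb8 lower) and 854 features in all against 567, and still 0 were called. The fitted difference was above 0 for 23 of the 51 genes, beside 47.7% of all features, and the median over the 51 was -0.047 against -0.03 over all features.

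The compartments had different medians. All 4 mitochondrial genes had a difference above 0, with a median of 0.73 and a range of 0.58 to 0.93. The ER genes were split 7 to 7 around a median of 0.00099, from -0.62 to 2.17. Of the 31 cytosolic and nuclear genes, 12 were above 0, with a median of -0.14 and a range of -1.11 to 2.02. These counts describe the lists. The difference between compartments was not tested. With at least 2 values in every group instead of a value on all arrays, 69 of the 74 genes could be fitted. Then all 8 mitochondrial genes lay above 0 (median 0.68), beside 11 of 19 ER genes, 18 of 39 cytosolic and nuclear genes and 48% of 15115 features.

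**Figure D1:**
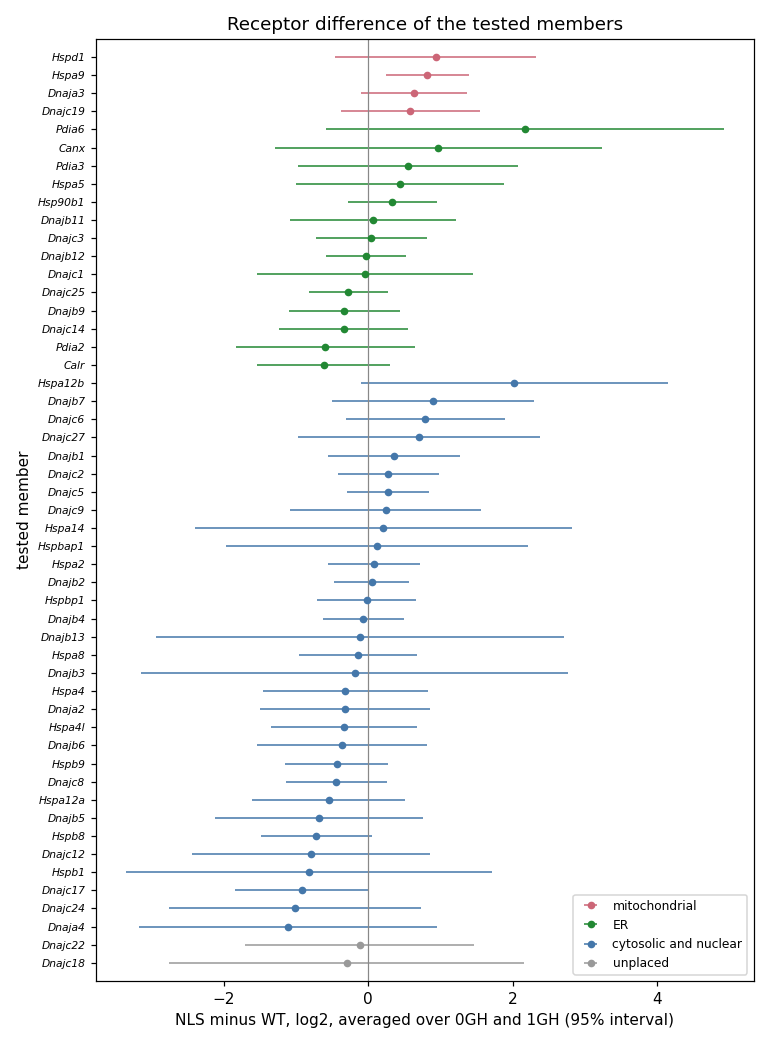
Fitted NLS minus WT difference (log2, averaged over 0GH and 1GH) of the 51 chaperone genes with a value on all 12 arrays; points are differences, lines are 95% intervals of the limma fit, and colours are compartments. The 4 mitochondrial genes lie between 0.58 and 0.93, the ER and cytosolic genes lie on both sides of 0, and most intervals cross 0.

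Hspa9 encodes the mitochondrial HSP70. Its centred log2 ratios on arrays b, c and d were 0.24, 0.066 and 0.30 in WT 0GH, -0.18, 0.29 and -0.50 in WT 1GH, 0.35, 1.29 and 1.05 in NLS 0GH and 0.74, 1.0 and 0.70 in NLS 1GH. The 6 NLS arrays ran from 0.35 to 1.29, higher than each of the WT arrays at -0.50 to 0.30, although the lowest NLS array and the highest WT array were close. Such a full separation was seen for 1 of the 51 genes and for 0.567% of all features. The means were 0.037 ± 0.32 in WT and 0.86 ± 0.33 in NLS (SD, n = 6 each), and the difference was 0.82 (SE 0.26, 95% interval 0.24 to 1.40) with an adjusted p of 0.844 in limma (unadjusted 0.0103). It was 0.70 (SE 0.37) at 0GH and 0.94 (SE 0.37) at 1GH. Leaving out a letter or an array gave 0.72 to 0.97.

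Hspd1 encodes the mitochondrial chaperonin (HSP60) and Hspe1 its lid (HSP10), the pair that shares the promoter stretch above. The values of Hspd1 were 2.56, -1.25 and -0.59 in WT 0GH, -0.73, -0.68 and -0.46 in WT 1GH, 1.43, 0.86 and -0.57 in NLS 0GH and 1.01, 0.63 and 1.07 in NLS 1GH. WT 0GH b was the highest of all, and NLS 0GH d lay within the WT range. At 1GH the 3 NLS arrays lay between 0.63 and 1.07, above the WT arrays at -0.73 to -0.46, and at 0GH the groups overlapped. The difference was 0.93 (SE 0.62, 95% interval -0.46 to 2.32) with a limma adjusted p of 0.916, 1.51 without WT 0GH b and 0.54 without letter c. Hspe1 gave -0.67, 0.027 and -0.62 in WT 0GH, 0.80, 0.79 and -0.18 in WT 1GH, 0.10, 1.27 and 0.18 in NLS 0GH and 1.12 and 0.058 in NLS 1GH without a value on array b. Its groups overlapped at 1GH, whereas at 0GH the lowest NLS array (0.10) was above the highest WT array (0.027). Among the features with a value on all arrays, 4.66% were separated in this way at 0GH. The 11 values gave a difference of 0.55 (SE 0.44) in the fit with at least 2 values per group, with a limma adjusted p of 0.911.

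Dnaja3 and Dnajc19 encode J-domain partners of the mitochondrial HSP70, the second at the inner membrane import motor. Dnaja3 was at -0.61, -0.68 and 0.47 in WT 0GH, -0.77, 0.60 and -0.11 in WT 1GH, 1.06, 0.46 and 0.57 in NLS 0GH and -0.051, 0.26 and 0.40 in NLS 1GH. NLS exceeded WT in 5 of 6 comparisons within a letter and a GH number, the exception being letter c at 1GH, and the groups overlapped. The difference was 0.63 (SE 0.33, 95% interval -0.099 to 1.36) with a limma adjusted p of 0.909, and 0.35 without letter b. Dnajc19 was at -0.57, 0.04 and -1.66 in WT 0GH, -0.29, 0.71 and -0.74 in WT 1GH, 0.18, 0.82 and 0.46 in NLS 0GH and 0.20, 0.51 and -1.19 in NLS 1GH. The 0GH groups did not overlap and the 1GH groups did, since NLS 1GH d was at -1.19. Its difference was 0.58 (SE 0.43), from 1.22 at 0GH to -0.056 at 1GH, with a limma adjusted p of 0.917. The remaining mitochondrial J-domain genes lacked a value on 1 to 3 arrays and had differences of 0.15 (SE 1.07) for Dnajc15, 0.72 (SE 0.76) for Dnajc28 and 1.39 (SE 1.47) for Dnajc30, each with an SE above the difference.

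Within each letter, the 4 mitochondrial genes had a median difference of 0.56 for b, 0.68 for c and 0.81 for d, with 4 of 4 above 0 each time. Over all features the letter medians were -0.011, -0.0087 and -0.026, which the centring of each array holds near 0. The median of the 4 genes on an array lay between -0.51 and 0.44 in WT and between 0.47 and 0.84 in NLS. How often other sets of 4 genes are separated in this way was not counted. The count of 4 of 4 held without each letter and without each array in turn, 15 settings in all, with medians of 0.67 to 0.86. Without a letter this count follows from the signs within the other letters, so those settings add nothing to it. On the same arrays the erythroid and megakaryocyte list had the lower NLS range given above, which overlapped its WT range. A link between these lists was not tested.

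**Figure D2:**
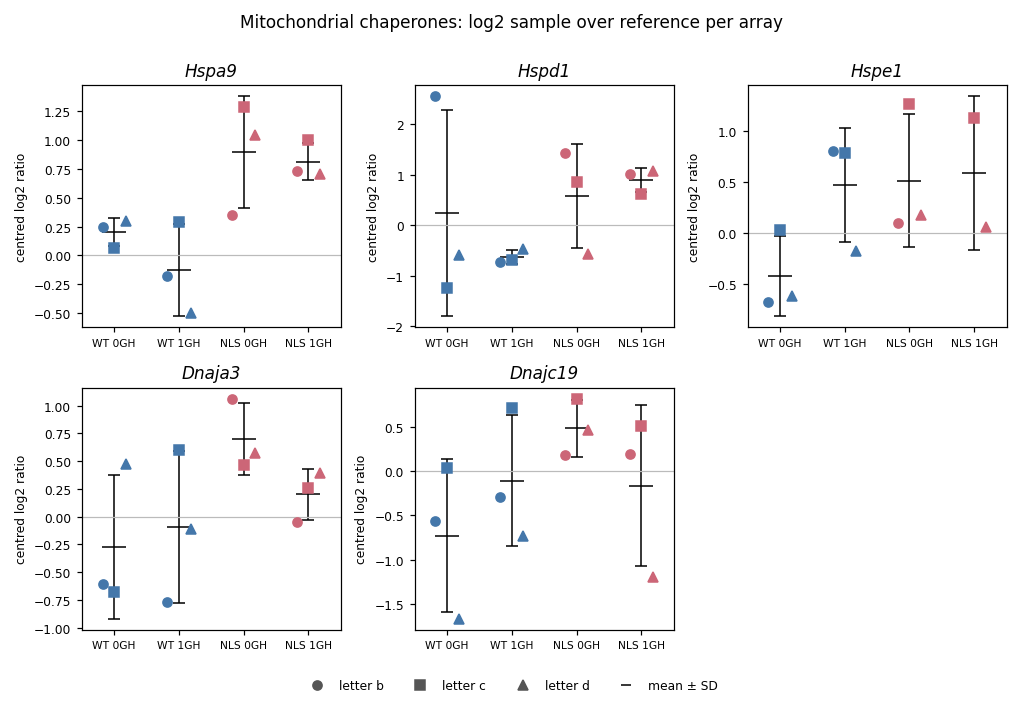
Centred log2 ratio of sample over reference on each array for 5 mitochondrial chaperone genes; blue is WT, red is NLS, symbols are letters, and bars are the group mean ± SD of 3 arrays (2 where Hspe1 has no value). The 6 NLS arrays of Hspa9 sit at 0.35 to 1.29, above the WT arrays, while the groups of the other 4 genes overlap at one GH number or at both.

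Other genes of mitochondrial folding and proteolysis were read from a separate list, of which 15 of 18 were tested. The test called 0 of them, beside 0% of all features. Above 0 were 13 of 15 with a median of 0.44, beside 47.7% and a median of -0.03 over all features. At an unadjusted p under 0.05 in limma stood 2 of 15, both higher, beside 2.81% of all features on that side. Clpb, a mitochondrial disaggregase, had the smallest p at 2.49 (SE 0.73), with a limma adjusted p of 0.837. Its values were -5.03, -3.49 and -1.06 in WT 0GH, 0.38, -0.31 and -1.54 in WT 1GH, 0.24, 1.02 and 1.06 in NLS 0GH and -1.25, 1.45 and 1.33 in NLS 1GH. WT 0GH b and c were the lowest, and 5 of 6 NLS arrays lay above 0 against 1 of 6 WT arrays. Lonp1, the matrix protease, was at 0.17, 0.81 and -0.22 in WT 0GH, 0.087, 0.52 and 1.26 in WT 1GH, 0.90, 1.42 and 1.87 in NLS 0GH and 0.80, 1.08 and 1.16 in NLS 1GH. Its difference was 0.77 (SE 0.31, limma adjusted p 0.899), and WT 1GH d at 1.26 overlapped the NLS arrays.

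In the ER, of the 6 genes whose windows hold the stress response element letters, only Calr had a difference below 0. The 95% interval of each of these genes included 0. Over all features 47.7% had a difference above 0. The signs of Hspa5, Canx and Dnajc3 turned in some settings with a letter or array left out. Hspa5, the ER HSP70, was at -1.51, 0.41 and -0.67 in WT 0GH, -2.68, 1.37 and -0.45 in WT 1GH, -0.62, 0.58 and -0.18 in NLS 0GH and -0.10, 0.28 and -0.87 in NLS 1GH. The widest values were both WT 1GH, b and c, and the NLS arrays lay inside the WT range. The difference was 0.44 (SE 0.65, 95% interval -1.01 to 1.88) with a limma adjusted p of 0.953, and -0.085 without WT 1GH b. Its 2 spots disagreed, with differences of 1.07 and -0.19. Hsp90b1, the ER HSP90, was at -0.30, 0.62 and 0.11 in WT 0GH, -0.61, 0.21 and -0.11 in WT 1GH, 0.036, 0.61 and 0.49 in NLS 0GH and -0.048, 0.54 and 0.27 in NLS 1GH. NLS exceeded WT in 5 of 6 pairs of letter and GH number, but the ranges overlapped, and the difference was 0.33 (SE 0.28, 95% interval -0.28 to 0.94).

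The lectin chaperones had differences of opposite sign. Calr was above the array median on every array, at 1.71, 3.24 and 2.26 in WT 0GH, 1.10, 2.75 and 2.65 in WT 1GH, 1.37, 2.25 and 2.07 in NLS 0GH and 1.46, 2.0 and 0.85 in NLS 1GH. NLS was below WT in 5 of 6 pairs of letter and GH number, with overlapping ranges, and the difference was -0.62 (SE 0.41, 95% interval -1.54 to 0.30) with a limma adjusted p of 0.916. Canx was at 2.30, 0.83 and 0.81 in WT 0GH, -0.37, -5.24 and 1.21 in WT 1GH, 0.42, 0.95 and 1.35 in NLS 0GH and 0.80, 2.58 and -0.73 in NLS 1GH. A single WT 1GH array, c at -5.24, lay apart from the rest. The difference of 0.97 (SE 1.02) became 0.028 without it.

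Pdia6, a disulfide isomerase, had the largest difference of the 14 ER genes with a value on all 12 arrays, and 1 array lay far apart. Its values were -2.08, 0.84 and -0.23 in WT 0GH, -7.71, 0.42 and -0.48 in WT 1GH, 1.15, 0.81 and 0.64 in NLS 0GH and 0.043, 1.02 and 0.095 in NLS 1GH. WT 1GH b lay far below all others. The difference was 2.17 (SE 1.24, 95% interval -0.58 to 4.92) with a limma adjusted p of 0.916, 0.89 without that array and 0.51 without letter b. Pdia3, which works with calnexin and calreticulin on glycoproteins, was at 2.39, 3.66 and 1.71 in WT 0GH, -1.43, 1.59 and 0.14 in WT 1GH, 2.61, 1.77 and 1.91 in NLS 0GH and 0.54, 0.86 and 3.68 in NLS 1GH. The ranges overlapped, with a difference of 0.55 (SE 0.68). Pdia4 and Pdia5 lacked a value on 1 and 3 arrays and were fitted with at least 2 values per group. Their differences were 2.08 (SE 0.90) and 1.90 (SE 0.72), with limma adjusted p of 0.862 and 0.854. Pdia4 lay between 1.12 and 4.85 on 6 NLS arrays and between -2.46 and 1.44 on 5 WT arrays, an overlap. For Pdia5 the difference came from NLS 1GH, at 0.037 and -1.04, while all other values were between -7.76 and -4.78.

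The ER J-domain proteins, some of which are partners of Hspa5, had differences on both sides of 0. These were 0.038 (SE 0.35) for Dnajc3, which also inhibits eIF2 alpha kinases, -0.33 (SE 0.35) for Dnajb9, which holds the stress sensor IRE1 inactive, 0.064 (SE 0.52) for Dnajb11, a luminal cofactor, and -0.28 (SE 0.24) for Dnajc25. The value of Dnajb11 became 0.54 without WT 0GH b, its highest array at 3.71. At 0GH all 3 NLS arrays of Dnajb9 (0.70 to 0.79) lay below all 3 WT arrays (1.25 to 1.80), as happened for 4 of the 51 genes and 4.48% of all features, and at 1GH they overlapped. The other ER genes with all values, Pdia2, Dnajb12, Dnajc1 and Dnajc14, had differences of -0.59 to -0.036. Dnajc16, an ER J-domain protein named here after its values were seen, had 11 values, from -4.31 to 0.76 in WT and from -0.0013 to 4.02 in NLS. Its difference of 2.26 (SE 1.04, limma adjusted p 0.868), in the fit with at least 2 values per group, was the highest of the 19 ER genes fitted there.

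Of 36 further genes of ER folding and the unfolded protein response, 22 were tested and 0 called, beside 0% of all features. The difference was above 0 for 9 of 22, with a median of -0.054, beside 47.7% and -0.03 over all features. Sdf2l1, a stress-induced ER protein, had the smallest p at 1.45 (SE 0.65, limma adjusted p 0.899) and was 0.92 without NLS 1GH b. Atf6, a stress sensor and transcription factor, followed at 1.38 (SE 0.71), with a limma adjusted p of 0.899.

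**Figure D3:**
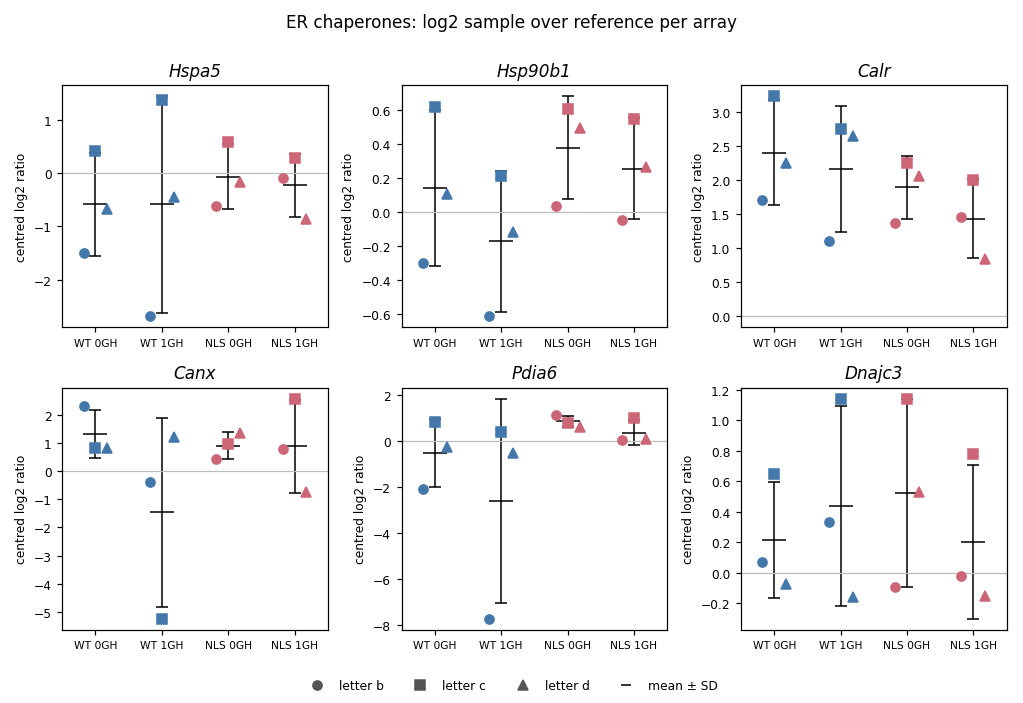
Centred log2 ratio of sample over reference on each array for the 6 ER genes whose promoter window holds the ER stress response element letters; blue is WT, red is NLS, symbols are letters, and bars are the group mean ± SD of 3 arrays. The ranges of WT and NLS overlap in every panel, and Canx and Pdia6 each have 1 low WT 1GH array (-5.24 and -7.71).

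Among cytosolic chaperones, the constitutive HSP70 Hspa8 was at -1.06, -1.56 and -1.86 in WT 0GH, -0.85, -1.61 and -1.04 in WT 1GH, -1.88, -2.21 and -1.44 in NLS 0GH and -0.19, -2.17 and -0.96 in NLS 1GH. The 6 NLS arrays spread from -2.21 to -0.19 and enclosed the WT arrays at -1.86 to -0.85, and the difference was -0.14 (SE 0.37, 95% interval -0.96 to 0.68) with a limma adjusted p of 0.982. Its 2 spots had means over the WT arrays of 0.75 and -3.42 and differences of 0.34 and -0.62, so they disagreed in level and in sign. Hspa4, an HSP110 exchange factor of HSP70, was at -0.50, -0.43 and 1.59 in WT 0GH, -0.19, 0.89 and 1.43 in WT 1GH, -1.14, 0.79 and 0.0081 in NLS 0GH and 0.061, 1.08 and 0.075 in NLS 1GH. Its difference was -0.32 (SE 0.51), with overlapping ranges. The stress-inducible Hspa1a had 11 values, from -1.08 to 0.033 in WT and from -0.88 to -0.11 in NLS, and a difference of 0.062 (SE 0.38).

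Hspa12b, a distant HSP70 relative of endothelium, had the largest cytosolic difference. It was at -1.27, -3.06 and -3.03 in WT 0GH, -0.97, -6.86 and -1.25 in WT 1GH, 0.43, -1.0 and -0.74 in NLS 0GH and -1.11, -1.61 and -0.29 in NLS 1GH. The 0GH groups did not overlap, and at 1GH a single WT array, c at -6.86, lay far below. The difference was 2.02 (SE 0.95, 95% interval -0.11 to 4.14) with a limma adjusted p of 0.899, and 1.06 without that array. The small heat shock proteins bind unfolded proteins without ATP. Hspb8, which works with Bag3 in the removal of misfolded proteins, was at -1.51, -2.10 and -2.75 in WT 0GH, -1.47, -2.22 and -2.94 in WT 1GH, -2.86, -3.08 and -3.78 in NLS 0GH and -2.47, -2.29 and -2.83 in NLS 1GH. Every NLS 0GH array lay below every WT 0GH array, and the 1GH groups overlapped. Its difference was -0.72 (SE 0.35, 95% interval -1.49 to 0.048) with a limma adjusted p of 0.899 (0.531 with the block). Hspb1 (HSP27) lay between -8.58 and -2.32 over the 12 arrays and had a difference of -0.82 (SE 1.14) that became 0.023 without NLS 1GH b.

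The cytosolic J-domain proteins were spread over both sides of 0. Dnajb1 (HSP40), the main stress-inducible partner of HSP70, was at -0.81, -0.39 and -1.56 in WT 0GH, -0.68, -0.52 and 0.44 in WT 1GH, 0.11, 0.51 and -1.09 in NLS 0GH and -1.15, 0.041 and 0.17 in NLS 1GH. Its ranges overlapped, with a difference of 0.35 (SE 0.41, 95% interval -0.56 to 1.26). Dnajc6, an auxilin that uncoats clathrin vesicles, had a difference of 0.79 (SE 0.49), which became 0.33 without NLS 1GH d. Dnaja1, a major partner of Hspa8, had 11 values and a difference of -0.25 (SE 1.10). Dnajc17, a J-domain protein with an RNA recognition motif, was at -0.087, -0.83 and -1.07 in WT 0GH, 0.75, -0.75 and -0.11 in WT 1GH, -1.67, -2.89 and -2.86 in NLS 0GH and 0.29, -1.01 and 0.50 in NLS 1GH. The 3 NLS 0GH arrays were the lowest of the 12, and the 1GH groups overlapped. Its difference was -0.92 (SE 0.41, 95% interval -1.84 to -0.0068) with a limma adjusted p of 0.899, made of -1.81 (SE 0.58) at 0GH and -0.035 (SE 0.58) at 1GH. The other 23 cytosolic and nuclear genes had differences between -1.11 and 0.89.

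Of a list of co-chaperones and heat shock factors outside the 74 genes, mostly cytosolic, 12 of 22 were tested and 0 called, beside 0% of all features. The list includes Serpinh1, which encodes a collagen chaperone of the ER and had a difference of 0.87 (SE 0.68). In this list the difference was above 0 for 10 of 12, with a median of 0.70, beside 47.7% and -0.03 over all features. When at least 2 values per group were asked for, it was above 0 for 9 of 15, with a median of 0.075, beside 48% of 15115 features. Stub1, the CHIP ubiquitin ligase that tags HSP70 clients, was at -0.55, -0.15 and -0.065 in WT 0GH, -1.80, -0.081 and -0.15 in WT 1GH, 0.18, 0.93 and 0.91 in NLS 0GH and -0.12, 0.093 and 0.51 in NLS 1GH. Its difference was 0.88 (SE 0.35, limma adjusted p 0.899), and NLS 1GH b was the 1 NLS array inside the WT range. Chordc1, an HSP90 co-chaperone, lay on the other side at -1.02 (SE 0.56) and was -0.59 without WT 0GH c.

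**Figure D4:**
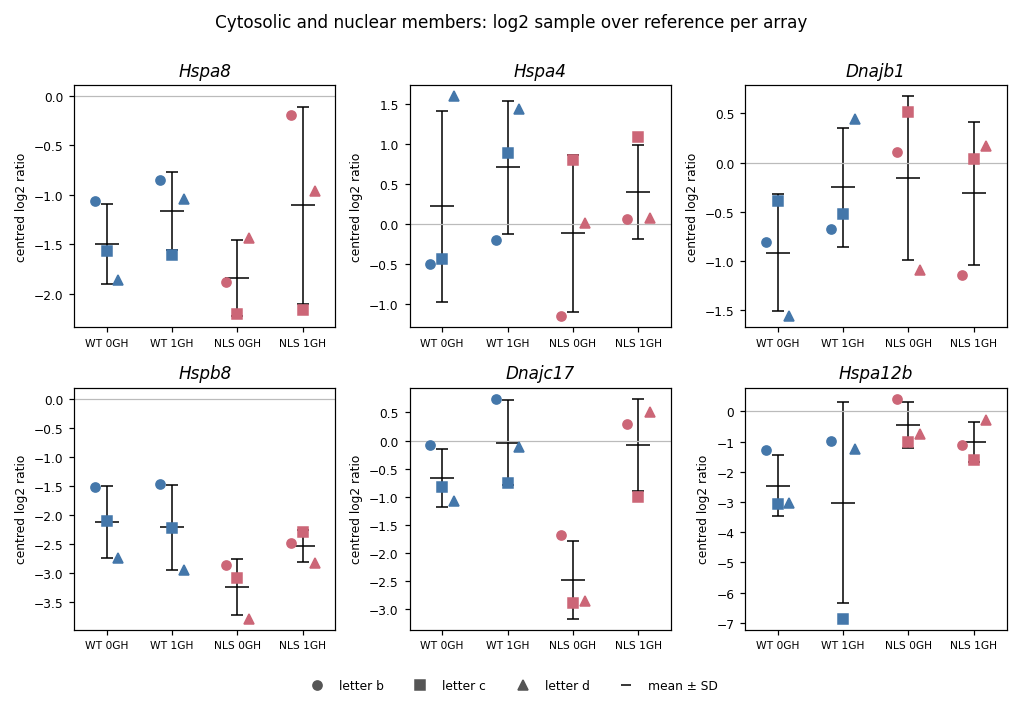
Centred log2 ratio of sample over reference on each array for 6 cytosolic or nuclear chaperone genes; blue is WT, red is NLS, symbols are letters, and bars are the group mean ± SD of 3 arrays. At 0GH the NLS arrays of Hspb8 and Dnajc17 lie below the WT arrays and those of Hspa12b above, while the 1GH groups of Hspb8 and Dnajc17 overlap.

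The receptor difference was then read at each GH number. At 0GH limma called 0 of 51 genes and 0% of all features, and 2 of 51 stood at an unadjusted p under 0.05 (Dnajc17 and Hspb8), beside 4.61% of all. Both were lower, beside 2.45% of all features. At 1GH it called 0 of 51 and 0% of all, and 1 of 51 stood at an unadjusted p under 0.05 (Hspa9), beside 3.49%, or 2.03% on its higher side. The mitochondrial median was 0.83 at 0GH (4 of 4 above 0) and 0.62 at 1GH (3 of 4). The ER median was -0.34 at 0GH, with 5 of 14 above 0, and 0.21 at 1GH, with 9 of 14. The cytosolic median was -0.21 and -0.058. Over all features the medians were -0.0036 and -0.052, with 49.7% and 46.8% above 0, beside 23 and 27 of the 51 genes. Without centring the median of all features was -0.18 at 0GH and 0.35 at 1GH. The compartment medians were then read relative to it, and each kept its sign. Such a reading takes the common shift out again, so it cannot show what centring does to these signs. Without letter b the ER median was -0.047 at 0GH and -0.026 at 1GH, and without letter d the cytosolic median was 0.0013 at 0GH and 0.046 at 1GH.

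Every NLS array lay above every WT array at 0GH for Hspa9, Dnajc19 and Hspa12b, 3 of 51 genes beside 4.66% of all features. The reverse was seen for Dnajb9, Dnajc17, Hspb8 and Hspbap1. At 1GH the NLS arrays were all above WT for Hspa9, Hspd1, Dnajb11 and Dnajc6, 4 of 51 beside 4.48% of all. They were all below for Dnajc25, Hspa14 and Hspa4l, 3 of 51 beside 4.24%. Hspbap1, Hspa14 and Hspa4l are named here after their values were seen. These shares are near those of all features. The test of whether the receptor difference itself differed between the GH numbers called 0 of 51 and 0% of all, with 1 of 51 at an unadjusted p under 0.05 (Hspbap1) beside 2.42%, or 1.49% on its higher side. For Hspbap1 the receptor difference had opposite signs at 0GH and 1GH in all 3 letters, as for 2.46% of all features.

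**Figure D5:**
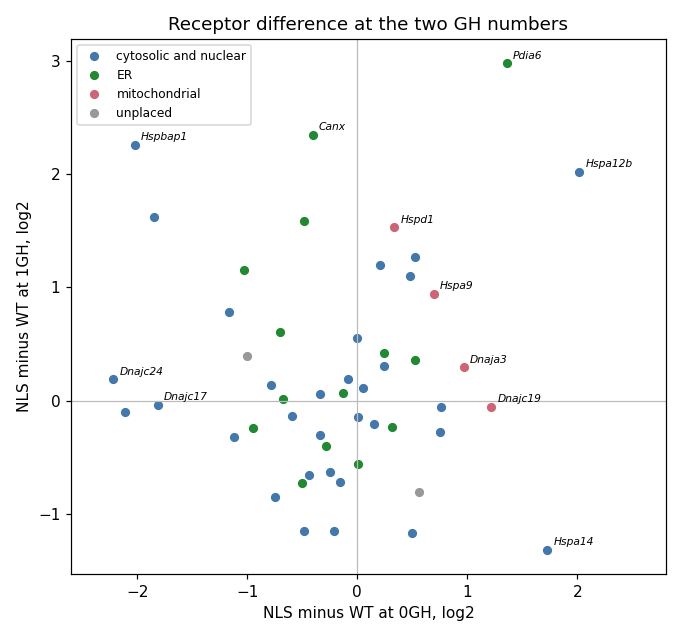
NLS minus WT difference (log2) at 0GH on the horizontal axis and at 1GH on the vertical axis for the 51 chaperone genes with a value on all 12 arrays, coloured by compartment. Hspa9, Hspd1 and Dnaja3 are above 0 on both axes, Dnajc19 is at 1.22 and -0.056, and Hspbap1 lies at -2.02 and 2.26.

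The comparison of 1GH with 0GH within a receptor form uses the same arrays as the receptor comparisons and adds no samples. In WT, limma called 0 of 51 genes and 0% of all features, and 2 of 51 stood at an unadjusted p under 0.05, beside 2.69% of all. Both were ER genes on the lower side, beside 1.53% of all features. These were Pdia3 at -2.48 (SE 0.97) and Dnajb11 at -1.79 (SE 0.73). For both, every WT 1GH array was below every WT 0GH array. WT 0GH b of Dnajb11, at 3.71, was its highest array. The share of all features with such a separation was not counted for this comparison. Between the receptor forms, such separations were seen for 4.24% to 4.66% of all features in each direction. Of the 14 ER genes 4 were above 0, with a median of -0.27, beside 52.5% and a median of 0.035 over all features. Of the cytosolic genes 17 of 31 were above 0 (median 0.058), and of the mitochondrial ones 2 of 4 (median -0.077).

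In NLS, 0 of 51 genes and 0% of all features were called, and 2 of 51 stood at an unadjusted p under 0.05, beside 2.92% of all (1.71% higher and 1.21% lower). Dnajc17 was 2.40 higher at 1GH (SE 0.58), with every NLS 1GH array above every NLS 0GH array, and its limma adjusted p was 1.0. The share of all features separated in this way was not counted here either. Dnajc8, a splicing-associated J-domain protein named here after its values were seen, was at -1.20 (SE 0.45). The median was -0.14 over the ER genes, 0.15 over the cytosolic genes and -0.29 over the mitochondrial genes, against -0.039 over all features, and 25 of the 51 genes were above 0, beside 47.3% of all features.

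The 2 unplaced genes with all values, Dnajc18 and Dnajc22, had receptor differences of -0.30 (SE 1.10) and -0.12 (SE 0.71). Dnajc4, with 11 values, had 1.45 (SE 0.54) and a limma adjusted p of 0.854 in the fit with at least 2 values per group, and is named after its values were seen. Its NLS values ran from -1.08 to 1.30 and its WT values from -2.07 to 0.22, which overlap. Dnajc21, Dnajc5b, Hspa13, Hspa1l and Hsph1 had 5 to 8 values and could not be fitted under either filter. Over the 51 fitted genes the median SE of the receptor difference was 0.51, from 0.23 to 1.33, so the small number of arrays limits what could be told apart.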

How the data were processed

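The 12 files hold ratios as deposited, which were read as log2 although their base is not stated. Deposited values ran from -14.6 (NLS 1GH b) to 18.2 (WT 0GH b). A 16-bit scan with a control channel of at least 200 gives a log2 bound of 8.36. Some values lay past this bound, so the range does not settle the base. Per the series' design text, the authors adjusted them by a Lowess fit over 50% of the data and set the control channel to at least 200. The sources used here name neither the scanner, the background method nor the numerator. The sign was turned after 32 of 35 embryo-tissue genes lay on the reference side (median -4.77). Controls were left out (902 of 23040 spots), spots of one gene were averaged, and features with a value on all 12 arrays were kept (8707 named genes and 2055 unnamed spots). Each array was centred on its median. One limma 3.58.1 fit (lmFit and eBayes, R 4.3.3) on 4 group means gave all comparisons, two-sided, with Benjamini-Hochberg adjustment over all features and a threshold of 0.05. The fit was run on simulated data with independent noise and no letter effect, so that run does not check the fit without pairing by letter.

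Alternatives were the letter as a block, uncentred values, quantile normalization, a filter of at least 2 values per group, spots kept apart, extreme ratios bounded at 8.36, a robust prior, and leaving out each letter and each array. Per the labels, samples of one letter share a red dye incorporation (19.3, 19.8 and 17.9 bp per dye for b, c and d), which is where the pairing comes from. Deviations from group means correlated at 0.043 to 0.26 within a letter and -0.19 to 0.066 between letters. Gene symbols come from the platform annotation. Named are the main chaperones of each compartment and, per compartment, the 2 genes with the smallest p in each direction, with the 2 smallest in each pathway list. Members, lists and tests were chosen with earlier results of these data known.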

Additional observations from a re-analysis of the deposited data

Results flagged for a closer look

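Hspbap1, which encodes a protein that binds the small heat shock protein HSP27, had opposite receptor differences at the GH numbers in all 3 letters. NLS minus WT was -1.68, -0.63 and -3.77 at 0GH for b, c and d, and 5.44, 0.99 and 0.34 at 1GH. The fitted difference was -2.02 at 0GH and 2.26 at 1GH, so the change between the GH numbers was 4.28 (SE 1.88). This did not pass in limma, with an adjusted p of 1.0 (unadjusted 0.0457). The signs by letter were not tested further. Opposite signs in all letters were seen for 1 of the 51 genes and for 2.46% of all features. WT 1GH b, at -5.17, was the lowest array.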

How the results depend on the processing

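The count of chaperone genes past the threshold was 0 under every alternative and every left-out letter or array, in all 6 comparisons. The numbers at an unadjusted p under 0.05 did move. For the receptor difference averaged over the GH numbers, at 0GH, at 1GH and between the GH numbers, they were 567, 496, 376 and 260. With the replicate block (paired by letter) they were 854, 750, 565 and 399, and the lowest adjusted p of a chaperone gene was 0.514. Without centring the first 3 were 256, 239 and 234, and 159 against 289 for 1GH minus 0GH in WT. With at least 2 values per group, 15115 features were fitted in place of 10762, and the numbers were 871, 811 and 465 for the average, 0GH and the change between GH numbers, 445 for GH in WT and 522 against 314 for GH in NLS. Over the same 10762 features that fit gave 259 higher and 226 lower for the average, 218 and 228 at 0GH, and 130 and 99 for the change. Without letter b they were 588 at 1GH, 448 for the change and 488 for GH in NLS. They were 557 for GH in NLS without NLS 0GH c, and 449 and 434 for GH in WT without WT 0GH c and without WT 0GH d. Without centring, the median of all features was 0.078 for the average, -0.18 at 0GH and 0.35 at 1GH. The split into higher and lower then moved from 302 and 265 to 167 and 89 for the average. It moved from 232 and 264 to 41 and 198 at 0GH, and from 218 and 158 to 215 and 19 at 1GH. It moved from 160 and 100 to 200 and 14 between the GH numbers, from 124 and 165 to 31 and 128 for GH in WT, and from 184 and 130 to 213 and 21 for GH in NLS.

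The mitochondrial median ran from 0.67 to 0.86 when a letter or array was left out, the ER median from -0.13 to 0.11 and the cytosolic median from -0.33 to 0.043. Quantile normalization moved the ER median to 0.11. With spots not averaged, 1 spot of Hspa8 gave 0.34 and 1 spot of Hspa5 gave -0.19, opposite to the gene. Signs turned in some left-out settings for Canx (-0.53 to 1.81), Dnajb11 (-0.32 to 0.70), Dnajb9 (-0.54 to 0.0097), Dnajc3 (-0.12 to 0.21), Hspa4 (-0.83 to 0.26), Hspa5 (-0.21 to 0.93), Hspa8 (-0.37 to 0.12), Hspb1 (-1.69 to 0.043) and Pdia3 (-0.11 to 1.48). The cause was not tested.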
